A study of Mus musculus with 11 samples.

Results

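Loss of Rheb1 from Cx3cr1-expressing cells was measured both in sorted tumour-associated microglia (TAM-MG) and in bulk GL261 tumours, and the comparison described here asks whether the genotype moved the same genes in both. Each gene has a genotype effect in TAM-MG, a genotype effect in bulk tumours, and the difference between them, the interaction of genotype and tissue. The tables hold 50686 genes. The members are the 12667 genes with enough counts in both tissues, out of 17028 that passed the low-count filter in bulk tumours and 14872 that passed in TAM-MG. All mice were C57BL/6, received tamoxifen 3 weeks before the tumour, and were injected intracranially at 6 weeks of age with GL261, a mouse glioma cell line. Samples were taken 3 weeks after that injection. Controls carried the floxed Rheb1 gene without Cre (Rheb1 fl/fl, WT in the labels). The other group also carried tamoxifen-inducible Cre knocked into Cx3cr1 (Cx3cr1-Rheb1 Δ/Δ, Rheb1 KO in the labels), so that the dose of intact Cx3cr1 differs by design. Bulk tumours gave 3 Rheb1 fl/fl libraries (replicates 35, 38 and 110) and 3 Cx3cr1-Rheb1 Δ/Δ libraries (replicates 26, 36 and 37). TAM-MG, sorted as live CD11b+ CD45low cells, gave 2 Rheb1 fl/fl libraries (replicates 74 and 78) and 3 Δ/Δ libraries (replicates 54, 63 and 65).

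Rheb is a small GTPase of the lysosome that activates mTOR complex 1 (mTORC1), which drives protein synthesis and cell growth. Microglia are the resident macrophages of the brain. They detect type I interferon through IFNAR and interferon-gamma through IFNGR, and both receptors signal through STAT proteins to overlapping sets of target genes. Type I interferon acts mainly through a complex of STAT proteins with IRF9, which induces the antiviral Ifit and Oas families. Interferon-gamma acts mainly through STAT dimers and IRF1, which induce guanylate-binding proteins, immunity-related GTPases and, through CIITA, MHC class II. The repeat of GAAA after a gap of 2 bases is the core of the site bound by the first complex and by IRF proteins, and TTCNNNGAA is the core of the STAT dimer site.

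Promoters were read because interferon targets moved in both tissues and their arms differed in pattern. Sequences are from RefSeq on GRCm38.p6, 250 bases before the annotated start, 5′ to 3′ on the gene's strand, and capitals mark 2 copies of GAAA with any 2 bases between them (2 copies of TTTC where the match lies on the other strand), except in Irf1, where they mark TTCNNNGAA, which reads the same on both strands. The first 3 belong to genes lower in Cx3cr1-Rheb1 Δ/Δ in both tissues, namely Irgm1 (chr11:48871421-48871670, minus strand), Ifit3b (chr19:34607707-34607956, plus strand) and Cybb (chrX:9469325-9469574, minus strand). The last belongs to Irf1 (chr11:53769764-53770013, plus strand), an interferon-gamma target lower in bulk tumours alone. Matches can overlap, as in Irgm1.
Irgm1: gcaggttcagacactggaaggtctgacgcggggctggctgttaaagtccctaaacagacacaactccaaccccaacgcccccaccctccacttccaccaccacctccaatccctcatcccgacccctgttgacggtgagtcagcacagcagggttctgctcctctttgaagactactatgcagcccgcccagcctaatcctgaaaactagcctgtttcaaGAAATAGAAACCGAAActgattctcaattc
Ifit3b: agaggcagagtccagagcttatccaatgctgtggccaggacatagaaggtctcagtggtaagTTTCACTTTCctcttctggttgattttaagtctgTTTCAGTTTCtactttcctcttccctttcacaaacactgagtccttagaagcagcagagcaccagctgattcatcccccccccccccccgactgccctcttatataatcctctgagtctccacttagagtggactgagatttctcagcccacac
Cybb: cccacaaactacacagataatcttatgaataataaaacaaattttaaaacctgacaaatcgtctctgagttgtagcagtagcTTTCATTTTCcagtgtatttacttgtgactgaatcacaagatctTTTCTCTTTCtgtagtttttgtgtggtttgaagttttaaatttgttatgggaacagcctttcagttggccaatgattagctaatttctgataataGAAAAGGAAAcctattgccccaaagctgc
Irf1: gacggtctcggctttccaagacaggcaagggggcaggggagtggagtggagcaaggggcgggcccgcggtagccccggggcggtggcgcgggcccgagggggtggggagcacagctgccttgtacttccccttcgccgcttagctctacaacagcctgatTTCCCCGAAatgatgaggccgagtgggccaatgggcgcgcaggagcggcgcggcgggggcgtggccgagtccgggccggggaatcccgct

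The GAAA repeat occurred in the window of 936 of 27025 genes with a promoter entry (3.46%) and of 328 of 9399 tested genes (3.49%). It occurred in 11 of the 14 interferon-gamma targets with an entry (78.6%) and in 9 of 21 type I interferon targets (42.9%). Of the 12 genes lower in both tissues, 10 had an entry and 3 held the motif, and of 316 genes lower in bulk tumours alone with an entry, 34 did (10.8%). TTCNNNGAA occurred in 8.13% of all genes with an entry, in 7 of 14 interferon-gamma targets (50%), in 4 of 21 type I targets (19.0%) and in 0 of the 10 genes lower in both tissues with an entry. The GAAA repeat was found in 1 of 9 MHC class II genes and in 0 of 12 homeostatic microglial genes. A match describes these letters in this window and does not show a bound site.

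Total counts ran from 14940787 to 21991348 in bulk tumours and from 20765767 to 29947977 in TAM-MG. Tissue and preparation were the same split, since bulk RNA came from scrapings of fixed, paraffin-embedded slides and TAM-MG RNA from fresh sorted cells, so these cannot be told apart. Markers of the sorted cells were present: the 15 homeostatic microglial genes summed to 27100 to 46100 CPM (TMM-scaled counts relative to library size) in TAM-MG and to 1360 to 1650 CPM in bulk tumours. Neuronal markers summed to 45 to 78.7 CPM in TAM-MG and to 2110 to 6210 CPM in bulk tumours. Of 11 granulocyte markers, Ly6g had 0 counts in every library, whereas the neutrophil granule genes Ngp and Camp were at 2.04 to 38.5 CPM and at 0.84 to 14.8 CPM in all 5 TAM-MG libraries and at 0 in bulk tumours. S100a9 was at 1.97 to 11.1 CPM in TAM-MG. The granulocyte list summed to 229 to 364 CPM in Rheb1 fl/fl and to 376 to 447 CPM in Δ/Δ TAM-MG. Most of it came from Csf3r, at 259 and 171 CPM against 345, 347 and 363 CPM. Cxcr2 was also higher in Δ/Δ TAM-MG. Camp was lower, at 14.8 and 14.0 CPM against 3.12, 1.48 and 0.84 CPM, and Ngp, S100a8 and S100a9 overlapped between the genotypes. The part of granulocytes in the results was not tested. Fewer genes had any count in TAM-MG from Rheb1 fl/fl mice (15012 and 15453) than in TAM-MG from Δ/Δ mice (16383 to 16961), and 520 tested genes had no count in either Rheb1 fl/fl TAM-MG library. One bulk Rheb1 fl/fl library, replicate 35, held Xist and no transcript of 4 Y-linked genes, whereas the other 10 libraries held Ddx3y. The labels do not say whether each library is a separate mouse, so p-values measure the spread between these samples.

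The targeted gene, Rheb (ENSMUSG00000028945, chromosome 5, 24802823 to 24842624, minus strand), stood lower in every Cx3cr1-Rheb1 Δ/Δ library than in any control of the same tissue. In bulk tumours its level was 323, 215 and 308 CPM in Rheb1 fl/fl libraries and 212, 124 and 129 CPM in Δ/Δ libraries. In TAM-MG it was 105 and 198 CPM against 81.7, 84.3 and 86.1 CPM. The control groups were themselves spread widely. The log2 change of Rheb was -0.87 ± 0.33 (SE) for bulk tumours and -0.85 ± 0.36 for TAM-MG, and both missed the threshold used below (adjusted p = 0.461 and 0.348, edgeR). The interaction was 0.02, with a 95% interval from -1.06 to 1.09. Counts are summed over the whole gene, so reads from exons that stay after deletion of exon 3 are included.

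Across all tested genes the size of the change in 1 tissue said little about its size in the other. Over 12667 genes, the log2 change in bulk tumours and that in TAM-MG had a Pearson correlation of 0.009 and a Spearman correlation of 0.022, and 50.2% of genes had the same sign. Over the 8311 genes that had 10 or more counts in each library, these were 0.038, 0.028 and 50.4%. These are descriptions across genes, which share libraries and are not independent. The tissues share no control library. A gene passed in a tissue at an unadjusted p of at most 0.02 with a change of at least 1.5-fold. In bulk tumours 442 genes were lower (3.49%) and 143 higher (1.13%) in Δ/Δ, whereas in TAM-MG 792 were higher (6.25%) and 176 lower (1.39%). Centring every library on the same mean log CPM moved the TAM-MG split to 617 higher and 582 lower, and the bulk split to 250 higher and 354 lower.

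At a Benjamini-Hochberg adjusted p under 0.05, edgeR's quasi-likelihood test called 38 genes in bulk tumours (0.3%), 117 in TAM-MG (0.924%) and 71 for the interaction (0.561%). The bulk calls were 4 higher and 34 lower genes, and the TAM-MG calls 93 higher and 24 lower. Neither count was stable. Without bulk Rheb1 fl/fl replicate 110 the bulk calls were 0 and 5, and without bulk Δ/Δ replicate 37 they were 3 and 64. In TAM-MG no gene was called with each tissue fitted alone, by limma voom or with log2 TPM, and 4 were called, all higher, where each library had 10 or more counts. Leaving out any bulk library gave 10 to 38 higher genes in TAM-MG, whereas leaving out TAM-MG Rheb1 fl/fl replicate 78 gave 555 higher and 57 lower. Of the interaction calls, 62 were positive (0.489%), meaning a higher or less negative effect in TAM-MG, and 9 were negative (0.0711%). A zero group shaped most of them: 40 of the 62 positive calls and 6 of the 9 negative calls had a group with no counts, most often TAM-MG from Rheb1 fl/fl mice (35 of the positive calls). The positive count fell to 2 without bulk Rheb1 fl/fl replicate 110 and rose to 466 without TAM-MG Rheb1 fl/fl replicate 78. It lay between 9 and 39 without bulk replicates 35, 38, 26 or 36 or TAM-MG replicate 74, and was 113 and 100 without TAM-MG Δ/Δ replicates 54 and 65. Sorting genes by both effects put 12 genes lower in both tissues (0.0947% of those tested), 7 higher in both (0.0553%), 17 lower in bulk tumours and higher in TAM-MG (0.134%) and 2 the other way (0.0158%). A further 413 were lower in bulk tumours alone (3.26%), 134 higher in bulk tumours alone (1.06%), 162 lower in TAM-MG alone (1.28%) and 768 higher in TAM-MG alone (6.06%). By fold alone, at least 1.5-fold in both, 720 genes were lower in both (5.68%), 930 higher in both (7.34%), 1001 lower in bulk tumours and higher in TAM-MG (7.9%) and 544 the reverse (4.29%).

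**Figure D1:**
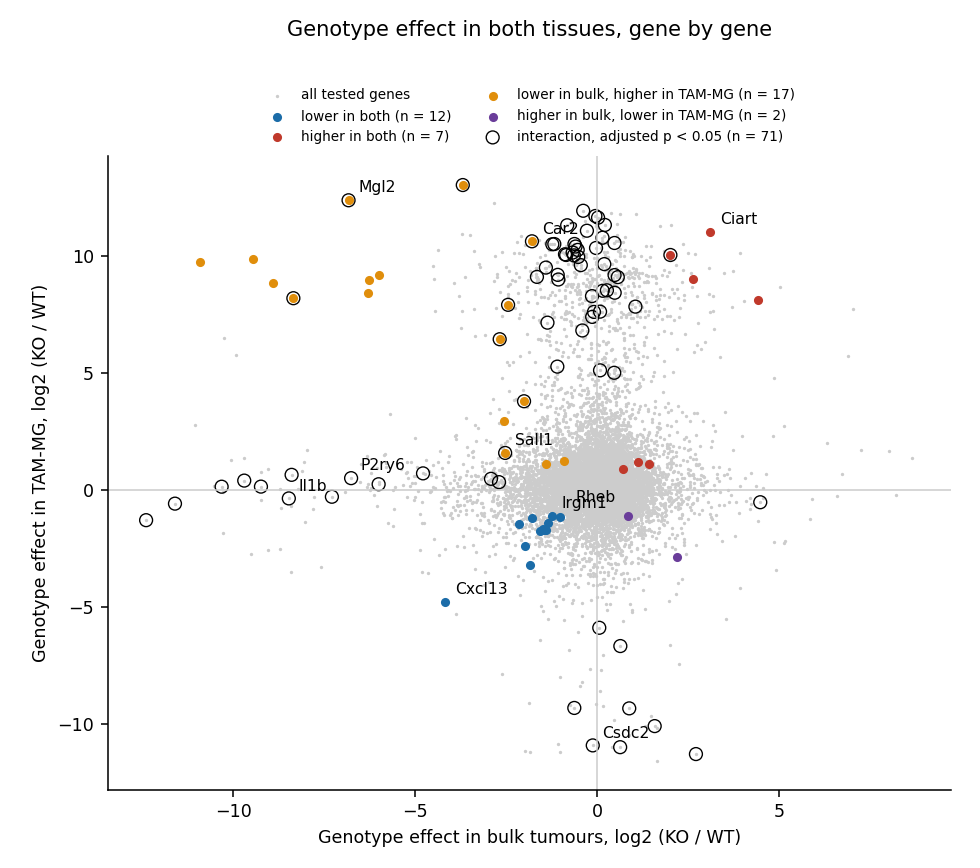
Genotype effect in bulk tumours (x axis) and in TAM-MG (y axis), each as log2 of Cx3cr1-Rheb1 Δ/Δ over Rheb1 fl/fl, with 1 point per tested gene. Grey points are all 12667 genes, coloured points the 4 classes that passed in both tissues (12, 7, 17 and 2 genes) and black rings the 71 interaction calls. The cloud shows no diagonal, and the points far from 0 include genes with a group at or near 0 counts, whose fitted values depend on the prior count.

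The 12 genes lower in both tissues were mostly interferon-responsive and chemokine genes: Irgm1, Oasl2, Usp18, Herc6, Ifi44, Ifit3b, Ccl5, Cxcl13, Cybb, Anxa5, Mlkl and Rexo2. Their median log2 changes were -1.53 (bulk tumours) and -1.69 (TAM-MG), and 11 of the 12 had at least 10 counts in every library. Of the 12, Anxa5, Cybb, Herc6, Ifi44 and Ifit3b were named after their values were seen. Irgm1, Oasl2, Rexo2, Usp18, Cxcl13 and Mlkl were picked for the smallest p in both tissues of this same fit, so their changes are selected as well. The count was 6 without bulk Rheb1 fl/fl replicate 35 or 110, 5 without TAM-MG Δ/Δ replicate 65 and 21 without bulk Δ/Δ replicate 37. TAM-MG Rheb1 fl/fl replicate 78 took it to 8 when left out.

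Irgm1 (chromosome 11, 48861968 to 48871683), an immunity-related GTPase induced by interferon, changed by a like amount in both. Bulk tumours held 644, 633 and 697 CPM in Rheb1 fl/fl and 226, 248 and 356 CPM in Δ/Δ libraries. TAM-MG held 1028 and 1000 CPM against 452, 546 and 426 CPM. Every Δ/Δ library was below every Rheb1 fl/fl library of its tissue. The log2 changes for bulk tumours and TAM-MG were -1.25 ± 0.26 and -1.09 ± 0.28 (edgeR adjusted p = 0.0841 and 0.105), with an interaction of 0.15 (95% interval -0.68 to 0.98).

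Usp18 and Oasl2 are type I interferon targets, the first a protease that removes ISG15 and dampens IFNAR signalling, the second a member of the oligoadenylate synthetase-like family. Usp18 was at 155, 91.8 and 134 CPM in bulk Rheb1 fl/fl libraries, 52.4, 25.8 and 64.2 CPM in bulk Δ/Δ, 775 and 332 CPM in Rheb1 fl/fl TAM-MG and 230, 157 and 114 CPM in Δ/Δ TAM-MG. Oasl2 was at 353, 215 and 309 CPM, then 131, 68.8 and 147 CPM, then 349 and 381 CPM, and last 158, 146 and 106 CPM, in the same order of groups. Neither gene's groups overlapped in either tissue. The log2 changes in bulk tumours and TAM-MG were -1.42 ± 0.44 and -1.73 ± 0.48 for Usp18, and -1.34 ± 0.34 and -1.42 ± 0.36 for Oasl2. The interaction interval was -1.74 to 1.12 for Usp18 and -1.17 to 1.01 for Oasl2, which leaves room for a difference of about the size of either effect.

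Cxcl13, the chemokine that attracts B cells, had the largest pair of changes. Its level was 207, 50.5 and 337 CPM in bulk Rheb1 fl/fl libraries and 0, 10.3 and 22.5 CPM in bulk Δ/Δ libraries. In TAM-MG it was 1509 and 4152 CPM against 116, 153 and 38.9 CPM. The groups did not overlap in either tissue, with log2 changes of -4.18 ± 1.31 and -4.79 ± 1.39. Ccl5, a chemokine for T cells and monocytes, went from 71.2, 47.6 and 119 CPM to 5.77, 31.2 and 23.4 CPM in bulk tumours (log2 change -1.98 ± 0.65) and from 106 and 325 CPM to 26.9, 38.2 and 56.5 CPM in TAM-MG (-2.41 ± 0.70). Cybb, the catalytic subunit of the phagocyte NADPH oxidase, changed by -1.48 ± 0.53 and -1.66 ± 0.57, but bulk Rheb1 fl/fl replicate 38 (31.8 CPM) lay within the Δ/Δ range of 13 to 44.4 CPM.

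Mlkl, the effector of necroptosis, was the member with the most unequal effects. It fell by 1.86 ± 0.60 on the log2 scale in bulk tumours and by 3.19 ± 0.67 in TAM-MG, where the levels were 88.7 and 76.7 CPM against 6.45, 11.7 and 8.94 CPM. The interaction of -1.34 had an interval from -3.25 to 0.58. Rexo2, a mitochondrial oligoribonuclease, fell by 1.79 ± 0.35 and 1.21 ± 0.37. Anxa5, a phosphatidylserine-binding protein, fell by 1.04 ± 0.37 and 1.14 ± 0.40. Herc6, a ligase for ISG15, fell by 2.16 ± 0.48 in bulk tumours, from 117 to 241 CPM down to 18.8 to 52.8 CPM, and by 1.45 ± 0.51 in TAM-MG. Ifi44 fell by 1.57 ± 0.52 and 1.74 ± 0.56, and Ifit3b by 1.46 ± 0.52 and 1.72 ± 0.57.

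**Figure D2:**
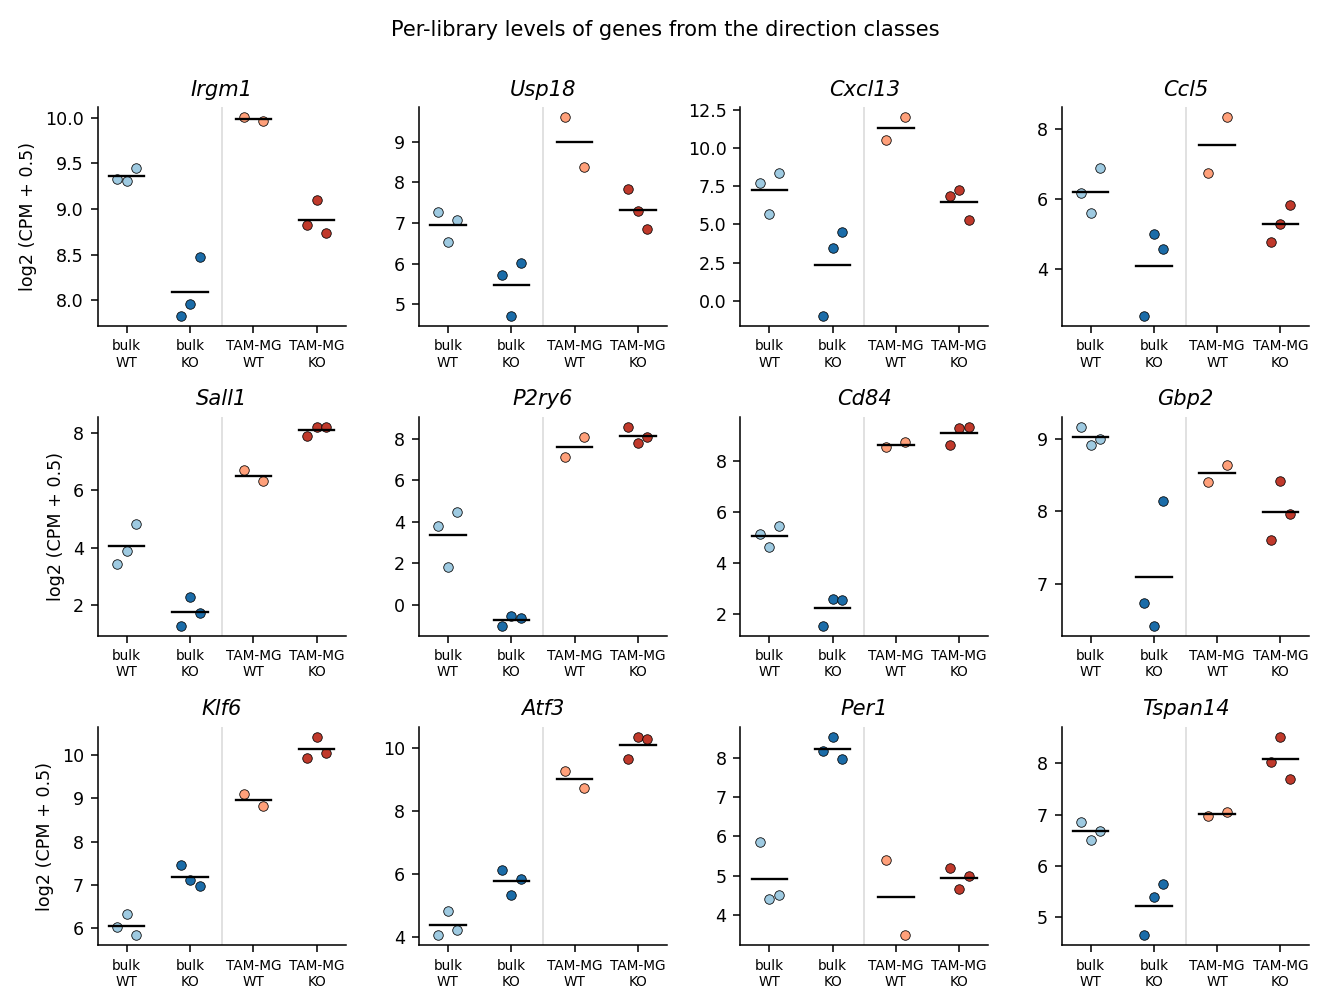
Level of 12 genes in each of the 11 libraries, as log2 of CPM + 0.5, with 1 point per library and a bar for the mean of each group (bulk tumours left, TAM-MG right of the grey line). Irgm1 and Usp18 drop in Cx3cr1-Rheb1 Δ/Δ in both tissues, Cd84 and P2ry6 drop in bulk tumours alone, and Sall1 and Tspan14 move in opposite directions.

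The 2 arms of the interferon response differed in their pattern. Of 30 type I interferon targets, 28 had a negative change in bulk tumours and 29 in TAM-MG, with medians of -0.81 and -1.18. Over all genes tested 50.2% were negative in bulk tumours and 46.5% in TAM-MG, with a median of 0.08 in TAM-MG. Of the 30, 7 passed as lower in bulk tumours and 13 in TAM-MG, and the groups did not overlap, with Δ/Δ lower, for 14 in bulk tumours (10.1% of all genes) and for 21 in TAM-MG (11.8% of all genes). Of 20 interferon-gamma targets, all 20 had a negative change in bulk tumours, 17 of which passed, with a median of -2.29. In TAM-MG 13 of the 20 were negative, 1 passed (Irgm1) and the median was -0.40. The groups did not overlap, with Δ/Δ lower, for 19 of the 20 in bulk tumours (10.1% of all genes). In TAM-MG this held for 7 of the 20 (11.8% of all genes), 6 of them lower without overlap in both tissues. For 2 of the 20, Δ/Δ TAM-MG lay higher without overlap, as for 1891 of all 12667 genes. A positive interaction at p of at most 0.02 was found for 9 of the 20 interferon-gamma targets (6.3% of all genes) and for 1 of the 30 type I targets. These medians kept their sign in each of 23 settings. In TAM-MG they ran from -1.59 to -1.01 for type I targets and from -0.78, with centred libraries, to -0.18, without Δ/Δ replicate 54, for interferon-gamma targets. In bulk tumours they ran from -1.20 to -0.65 and from -2.85 to -2.01. The lists were chosen with results of these data known and are described by counts alone.

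The type I targets lower in TAM-MG included the Ifit family, which binds viral RNA. Ifit3 was at 560 and 816 CPM in Rheb1 fl/fl TAM-MG and at 154, 238 and 169 CPM in Δ/Δ TAM-MG, a log2 change of -1.88 ± 0.36 (adjusted p = 0.0383). In bulk tumours it was at 220, 117 and 145 CPM against 68.4, 96.1 and 106 CPM, a change of -0.84 ± 0.33 that did not pass. Ifit1 changed by -1.78 ± 0.41 in TAM-MG and by -0.96 ± 0.37 in bulk tumours. Isg15, the ubiquitin-like modifier, was at 216 and 160 CPM against 71.6, 68.2 and 42.6 CPM in TAM-MG, and at 93.3, 45.7 and 34.1 CPM against 22.5, 15.6 and 71.7 CPM in bulk tumours. Its groups overlapped in bulk tumours only, through Δ/Δ replicate 37, and neither change passed (-1.63 ± 0.63 in TAM-MG, -0.65 ± 0.57 in bulk tumours). Ifit3 and Ifit3b are near-identical copies whose reads may be split between them.

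Single interferon-gamma targets showed the same contrast. Irf1, the transcription factor at the head of this arm, was at 239, 188 and 281 CPM in bulk Rheb1 fl/fl libraries and at 67.4, 80.9 and 52.6 CPM in bulk Δ/Δ libraries (log2 change -1.82 ± 0.37). In TAM-MG it was at 397 and 165 CPM against 315, 493 and 474 CPM (0.61 ± 0.40). The Rheb1 fl/fl libraries stood above all Δ/Δ libraries in bulk tumours and straddled the lowest of them in TAM-MG, and the interaction was 2.42 (95% interval 1.22 to 3.63, adjusted p = 0.083 by edgeR's quasi-likelihood test). Gbp2, a guanylate-binding protein, fell by 1.73 ± 0.43 in bulk tumours, from 480 to 572 CPM down to 85.2 to 281 CPM, and changed by -0.50 ± 0.46 in TAM-MG. Cxcl9, a chemokine for effector T cells, fell by 3.69 ± 0.76 in bulk tumours and stood at 39.2 and 44.9 CPM against 7.31, 19.8 and 5.49 CPM in TAM-MG, where its change of -1.95 ± 0.76 missed the threshold. Its groups did not overlap in either tissue, and the interaction interval ran from -0.55 to 4.03. Ciita, the master regulator of MHC class II, was at 55.6, 54.9 and 28.4 CPM against 0, 0.315 and 2.31 CPM in bulk tumours (-5.69 ± 1.83), and at 0 and 9.10 CPM against 23.8, 36 and 69.6 CPM in TAM-MG (3.25 ± 1.92, not passed). Guanylate-binding proteins and the Tgtp1 and Tgtp2 pair hold close copies, and their counts are uncertain to that extent.

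Summed levels of lymphocyte markers lay apart between the bulk groups, although few single markers passed. Of 5 tested T cell markers 1 passed as lower in bulk tumours (Cd2, named for that), and of 4 tested markers of NK and cytotoxic cells 0 passed or reached an unadjusted p under 0.05 by edgeR's quasi-likelihood test, 0 passed by DESeq2 and 1 was lower by limma voom. The 14 T cell markers summed to 80.6 to 202 CPM in bulk Rheb1 fl/fl libraries and to 30.2 to 58.9 CPM in Δ/Δ libraries. Cd27 and Lck together gave most of this sum in every bulk library. Cd27 was at 36.1, 48.5 and 35.9 CPM against 19.0, 33.1 and 35.5 CPM. Lck was at 12.2, 17.2 and 70.6 CPM against 5.31, 4.34 and 14.1 CPM. Cd3e, Cd8a, Cd4 and Trac were not among the tested genes. The 10 markers of NK and cytotoxic cells summed to 36 to 45.5 CPM and 2.71 to 16.4 CPM. In TAM-MG the T cell markers summed to 22.7 to 32.1 CPM and 11.6 to 27.3 CPM. Ifng itself was at 0, 9.71 and 1.17 CPM in bulk Rheb1 fl/fl libraries and at 0 in the other 8 libraries, and was not among the tested genes. The study reports the opposite direction for T cells, with more CD8 and CD4 cells in Δ/Δ tumours. Its evidence was CIBERSORT on bulk RNA, flow cytometry and stained sections, which give cell fractions or percentages rather than summed marker RNA. The reason for the difference was not tested, nor was the part of T and NK cells in the lower interferon-gamma targets.

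The receptors and transducers of both pathways followed the same split without most of them passing. Of 16 genes, 15 were negative in bulk tumours (6 passed, median -0.91) and 4 were negative in TAM-MG (1 passed, Irf7, median 0.36, which became -0.05 with centred libraries). Ifnar1, a chain of the type I receptor, was at 46.8 and 41 CPM in Rheb1 fl/fl TAM-MG and at 110, 80.2 and 84.5 CPM in Δ/Δ TAM-MG, with no overlap, and changed by 1.06 ± 0.65. In bulk tumours it changed by -0.87 ± 0.57, and the interaction of 1.93 had an interval from 0.03 to 3.83. Ifngr1, a chain of the interferon-gamma receptor, changed by -0.56 ± 0.46 in bulk tumours and by 0.12 ± 0.51 in TAM-MG.

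Genes of microglia and macrophages were lower in bulk tumours alone. Of 24 such markers, all 24 were negative in bulk tumours and 16 passed, with a median of -1.61. In TAM-MG 12 were negative and 12 positive, 1 passed (Cybb) and the median was -0.01, whose sign changed in 8 of 23 settings. The summed level of the list was 3450 to 5890 CPM in bulk Rheb1 fl/fl libraries and 961 to 1910 CPM in bulk Δ/Δ libraries, against 59800 to 84400 CPM and 65200 to 79700 CPM in TAM-MG. In bulk tissue, fewer cells of a type and less RNA per cell cannot be told apart. For all 413 genes lower in bulk tumours alone, 197 (47.7%) also had an interaction p of at most 0.02 (7.59% of all genes), a share that the choice of the class on the same fit raises and from which nothing is read. The remainder are not shown to differ between the tissues.

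Aif1, which encodes Iba1, was at 36.7, 44.9 and 49.6 CPM in bulk Rheb1 fl/fl libraries and at 12.1, 2.83 and 11.7 CPM in bulk Δ/Δ libraries. In TAM-MG it was at 631 and 1072 CPM against 666, 880 and 986 CPM. The groups were apart in bulk tumours (log2 change -2.30 ± 0.48) and fully overlapped in TAM-MG (-0.01 ± 0.51), with an interaction of 2.29 (interval 0.75 to 3.83). Itgam, which encodes CD11b, one of the markers of the sort, changed by -3.35 ± 0.70 in bulk tumours and by 0.39 ± 0.71 in TAM-MG. Csf1r, the receptor that microglia need for survival, was at 178, 238 and 288 CPM against 31.8, 79.7 and 123 CPM in bulk tumours and at 3054 and 2604 CPM against 6096, 4583 and 3683 CPM in TAM-MG. Its groups did not overlap in either tissue and lay in opposite order. The bulk change of -1.59 ± 0.44 passed, the TAM-MG change of 0.76 ± 0.50 did not, and the interaction was 2.35 (interval 0.87 to 3.82). Csf1r overlaps Hmgxb3, and the strand setting of the counting is not given in the sources used here. Its ligand Csf1 fell by 1.98 ± 0.49 in bulk tumours and changed by 0.47 ± 0.54 in TAM-MG.

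Homeostatic microglial genes, which mark unstimulated microglia, were negative in bulk tumours for 11 of 15 (5 passed, median -1.70) and positive in TAM-MG for all 15 (1 passed, Sall1, median 0.49, or 0.06 with centred libraries). The 5 include Cx3cr1, whose intact dose differs by design because Δ/Δ mice carry Cre in it. Tmem119 was at 91.6, 37.8 and 57.7 CPM against 18.2, 3.84 and 30.6 CPM in bulk tumours (-1.83 ± 0.61), and at 2103 and 1631 CPM against 4186, 3381 and 2314 CPM in TAM-MG (0.82 ± 0.67). P2ry12, the ADP receptor of microglial processes, changed by -1.70 ± 0.65 in bulk tumours and by 1.11 ± 0.72 in TAM-MG, with an interaction of 2.81 (interval 0.66 to 4.95). The summed level of the list hardly differed in bulk tumours (1450 to 1650 CPM against 1360 to 1510 CPM). Sparc alone gave 663 to 1199 CPM of it and changed by 0.15 ± 0.29.

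Genes of antigen presentation by MHC class II behaved likewise. All 12 were negative in bulk tumours (6 passed, median -1.72), and 2 of 12 were negative in TAM-MG (median 0.49), where 0 passed, 0 reached an unadjusted p under 0.05 in edgeR's quasi-likelihood test, 0 passed by its likelihood ratio test or by DESeq2, and 2 were higher by limma voom. H2-Aa, an MHC class II alpha chain, was at 1090, 1294 and 1656 CPM against 145, 406 and 446 CPM in bulk tumours (-2.02 ± 0.64). In TAM-MG it was at 1263 and 2116 CPM against 1293, 3320 and 9147 CPM (1.44 ± 0.73). The Δ/Δ TAM-MG libraries spread over a wide range and overlapped the controls, whereas bulk groups were apart, and the interaction was 3.46 (interval 1.30 to 5.62). H2-Ab1, the matching beta chain, gave an interaction of 3.31 (interval 1.07 to 5.55). H2-Eb1 changed by -1.82 ± 0.78 in bulk tumours and by -1.11 ± 0.84 in TAM-MG, and neither passed. MHC class I genes were negative for 16 of 17 in bulk tumours (5 passed, median -0.84) and for 10 of 17 in TAM-MG (1 passed, H2-T22, named for that).

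Chemokines and their receptors held both patterns. Of 21 genes, 20 were negative in bulk tumours (12 passed, median -2.60), whereas in TAM-MG 11 were negative and the 2 that passed were Ccl5 and Cxcl13. Ccl2, which recruits monocytes, was at 27.5, 13 and 21.7 CPM against 10.7, 11.8 and 6.53 CPM in bulk tumours (-1.10 ± 0.38) and at 626 and 314 CPM against 681, 951 and 667 CPM in TAM-MG (0.70 ± 0.42). The interaction for Ccl2 was 1.81 (interval 0.55 to 3.06). Ccl3 changed by -1.92 ± 0.66 in bulk tumours and by 0.48 ± 0.71 in TAM-MG. Of 18 cytokine receptors, 17 were negative in bulk tumours (6 passed, median -1.74) and 7 in TAM-MG (median 0.70), where 0 passed by edgeR's quasi-likelihood test, 1 was higher at an unadjusted p under 0.05 (9.58% of all genes), 1 was higher by the likelihood ratio test and by DESeq2, and 2 were higher and 2 lower by limma voom. Cd274, which encodes the checkpoint ligand PD-L1, fell by 1.57 ± 0.46 in bulk tumours and changed by 0.43 ± 0.50 in TAM-MG (interaction 2.00, interval 0.49 to 3.50).

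The bulk-only genes with the smallest p included Il1b, Cysltr1, Pla2g15 and Tnfaip8l2, and all 4 had an interaction at an adjusted p under 0.05. They were picked for a small bulk p and for not passing in TAM-MG, in the same fit. That choice makes a low interaction p likely, so it adds no separate evidence of a difference between the tissues. Il1b, the inflammatory cytokine interleukin-1 beta, had 1238 counts over the 3 bulk Rheb1 fl/fl libraries and 3 counts over the 3 bulk Δ/Δ libraries. The ratio of these counts, each relative to library size, was 357, with a 95% exact counting interval from 122 to 1732. In TAM-MG Il1b was at 678 and 170 CPM against 365, 353 and 273 CPM, with the Δ/Δ libraries between the control libraries. Pla2g15, a lysosomal phospholipase, was at 43.8, 40.9 and 54.6 CPM against 4.97, 8.49 and 7.96 CPM in bulk tumours (log2 change -2.70 ± 0.35, adjusted p = 0.0156) and at 369 and 185 CPM against 402, 325 and 322 CPM in TAM-MG (0.34 ± 0.37). Its interaction was 3.03 ± 0.51 (adjusted p = 0.0333). Tnfaip8l2, a brake on innate signalling, had no count in bulk Δ/Δ libraries, at least 66-fold lower when 3 counts are allowed for that group, and was at 67.2 to 144 CPM in all 5 TAM-MG libraries. Cd84 and P2ry6, named after their values were seen, fell by 2.92 ± 0.39 and 6.76 ± 0.90 in bulk tumours and had interactions of 3.40 ± 0.57 and 7.27 ± 1.18. Il1b overlaps the antisense gene Il1bos.

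Genes far more abundant in TAM-MG than in bulk tumours were lower in bulk Δ/Δ tumours as a body. For the 442 genes whose mean level was over 4 log2 units higher in TAM-MG, the median log2 change in bulk tumours was -1.22, 77.6% were negative and 29% passed as lower. In TAM-MG their median change was 0.15, 38.9% were negative and 0.226% passed as lower. The bulk median moved between -1.50 and -0.83 over the settings, and the TAM-MG median between -0.23 and 0.33. The level ratio uses the same libraries as the effects and is coupled to them. With the ratio taken from Rheb1 fl/fl libraries alone, the bulk median for the 342 genes was -0.46, with 61.7% negative and 17.3% lower, and with the ratio from Δ/Δ libraries alone it was -1.46 over 625 genes. At the other end, the 699 genes over 4 log2 units lower in TAM-MG had a median of 0.25 in bulk tumours and of 1.07 in TAM-MG, where 28.9% passed as higher, and 128 of them had no count in Rheb1 fl/fl TAM-MG. With at least 10 counts in every library, 110 such genes had medians of 0.38 and 0.33. These bins were chosen after the effects were seen.

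**Figure D3:**
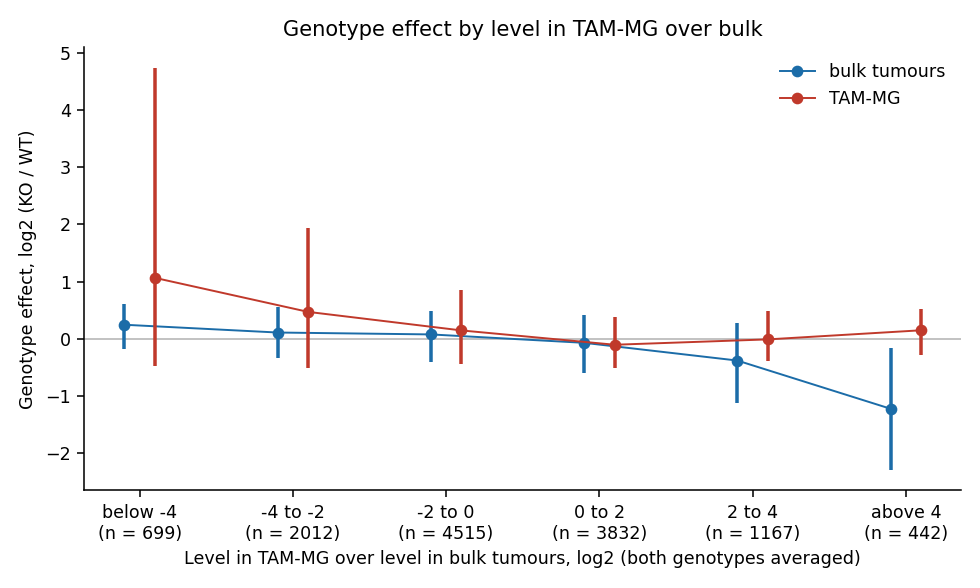
Genotype effect (y axis, log2 of Cx3cr1-Rheb1 Δ/Δ over Rheb1 fl/fl) by the level in TAM-MG over that in bulk tumours (x axis, 6 bins on the log2 scale, both genotypes averaged). Points are medians over genes and bars interquartile ranges; the bulk median falls from 0.25 in the lowest bin to -1.22 in the highest, while the TAM-MG median is 1.07 in the lowest and 0.15 in the highest.

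Opposite changes were found for 17 genes lower in bulk tumours and higher in TAM-MG. Of the 17, 10 had no count in Rheb1 fl/fl TAM-MG and 5 had at least 10 counts in every library. Leaving out TAM-MG Δ/Δ replicate 54 gave 32 such genes, and leaving out bulk Rheb1 fl/fl replicate 110 or TAM-MG Δ/Δ replicate 63 gave 9 and 11. Sall1 (chromosome 8), the transcription factor that maintains microglial identity, was one of these 5. It was at 10.3, 14.3 and 28 CPM in bulk Rheb1 fl/fl libraries and at 1.92, 4.34 and 2.82 CPM in bulk Δ/Δ libraries. In TAM-MG it was at 103 and 79.7 CPM against 234, 294 and 293 CPM. The groups were apart in both tissues and in opposite order. The log2 change was -2.53 ± 0.44 in bulk tumours (adjusted p = 0.0466) and 1.58 ± 0.49 in TAM-MG (adjusted p = 0.173), and the interaction was 4.11 (interval 2.65 to 5.58, adjusted p = 0.0329), between 2.83 and 4.46 in 23 settings.

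Tspan14, a tetraspanin that guides the protease ADAM10, was at 115, 90.5 and 102 CPM against 24.6, 41.5 and 49.5 CPM in bulk tumours and at 125 and 131 CPM against 261, 365 and 205 CPM in TAM-MG. It was named, with Arg1, after its values were seen. Its changes of -1.41 ± 0.33 and 1.11 ± 0.38 gave an interaction of 2.52 (interval 1.41 to 3.63, adjusted p = 0.0569). Arg1, the arginase of alternatively activated macrophages, was at 55.7, 199 and 200 CPM against 7.69, 3.08 and 24.2 CPM in bulk tumours. In TAM-MG it had 1 count in the Rheb1 fl/fl libraries and stood at 30.2, 49.5 and 653 CPM in Δ/Δ libraries, a count ratio of 10440 with a counting interval from 1873 to 412300. Replicate 65 held most of that level. Cav1, the coat protein of caveolae, was at 95.5, 74.6 and 60.9 CPM against 8.55, 14.4 and 13.1 CPM in bulk tumours and at 0.302 and 0 CPM against 15.2, 7.18 and 22.1 CPM in TAM-MG. Mgl2, a lectin of alternatively activated macrophages and dendritic cells, had no count in Rheb1 fl/fl TAM-MG and was at least 486-fold higher in Δ/Δ TAM-MG. Car2 (carbonic anhydrase 2) and Fabp7, a fatty acid-binding protein of radial glia and astrocytes, likewise had no count there, and were at least 141-fold and 21.8-fold higher in Δ/Δ TAM-MG. Their levels there, 8.24 to 13.1 CPM for Car2 and 0.430 to 2.92 CPM for Fabp7, were below those in every bulk library (from 38.1 and 13.4 CPM).

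Genes higher in TAM-MG alone were the largest of the 8 classes that passed in a tissue, with 768 members, and 386 of them had no count in Rheb1 fl/fl TAM-MG. An interaction p of at most 0.02 was found for 517 (67.3%, against 7.59% of all genes). The choice of the class on the same fit raises this share, and nothing is read from it. Tspyl4, of the nucleosome assembly protein family, had 1 count in Rheb1 fl/fl TAM-MG and 344 counts in Δ/Δ TAM-MG, a ratio of 242 (counting interval 43.1 to 9582), and was at 112 to 214 CPM in all 6 bulk libraries. Srxn1, which repairs oxidised peroxiredoxins, had no count in Rheb1 fl/fl TAM-MG, stood at 34.8, 12.8 and 15.8 CPM in Δ/Δ TAM-MG (at least 291-fold higher), and at 32.4 to 61.9 CPM in bulk tumours. Rusc1 and Rai1 showed the same form, with 2.55 to 5.29 CPM and 6.56 to 37.7 CPM in Δ/Δ TAM-MG. Rai1 overlaps Srebf1. A smaller group was lower in TAM-MG alone (162, of which 23 had no count in Δ/Δ TAM-MG). Csdc2, an RNA-binding protein, was at 11.7 and 12.6 CPM in Rheb1 fl/fl TAM-MG, at 0 in all 3 Δ/Δ libraries (at least 243-fold lower) and at 42 to 70.5 CPM in bulk tumours. Pcdh10, a protocadherin, was at 10.7 and 3.80 CPM against 0.0463 to 0.215 CPM in TAM-MG and at 40.1 to 177 CPM in bulk tumours. With both genotypes averaged on the log2 scale, each of these 6 genes was over 3 log2 units more abundant in bulk tumours than in TAM-MG. The group at or near 0 counts lowers that TAM-MG mean. In Δ/Δ TAM-MG alone, Srxn1 at 12.8 to 34.8 CPM reached into its bulk range of 32.4 to 61.9 CPM. Over the TAM-MG libraries the neuronal markers summed to 45 to 77.9 CPM in Rheb1 fl/fl and 69.5 to 78.7 CPM in Δ/Δ mice, and the astrocyte markers to 314 to 682 CPM and 374 to 519 CPM. Single markers were nonetheless in the class, and are named for that: Gad2, Snap25 and Thy1 of 11 tested neuronal genes (median 1.43 in TAM-MG), Aqp4 of 10 astrocyte genes, Mal of 11 oligodendrocyte genes and Cldn5 of 9 endothelial genes. Snap25, a synaptic fusion protein, was at 3.59 and 0.062 CPM in Rheb1 fl/fl and at 17.4, 21.8 and 5.63 CPM in Δ/Δ TAM-MG. The part of such cells in this class was not tested.

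Of the 7 genes higher in both tissues, 3 had counts throughout: Klf6, Atf3 and Usp7. Klf6, a zinc finger transcription factor of the early response, was at 64.4, 80.0 and 56.7 CPM against 177, 138 and 125 CPM in bulk tumours and at 551 and 451 CPM against 970, 1374 and 1055 CPM in TAM-MG. No Δ/Δ library overlapped a control, and the log2 changes were 1.13 ± 0.27 and 1.18 ± 0.31 (interaction 0.05, interval -0.82 to 0.92). Atf3, a stress-induced transcription factor, rose by 1.43 ± 0.34 and 1.11 ± 0.38. Usp7, a deubiquitinase, rose by 0.71 ± 0.25 and 0.88 ± 0.28. The class held 18 genes without TAM-MG Rheb1 fl/fl replicate 78, 16 without replicate 74 and 4 without bulk Δ/Δ replicate 26.

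Circadian clock genes appeared among those higher in both tissues through Cry2 and Ciart, which repress the clock activators. Of 13 clock genes, 11 were positive in bulk tumours, with a median of 0.69, and 3 passed as higher (1.13% of all genes). In TAM-MG 10 were positive, with a median of 1.33, and 3 passed as higher (6.25% of all genes). Those 3, Arntl, Cry2 and Ciart, each had a Rheb1 fl/fl TAM-MG group at or near 0 counts. At the same threshold limma voom gave 1 clock gene as higher in TAM-MG and DESeq2 gave 6. Arntl, the activator BMAL1, was at 0.189 and 0 CPM against 11.8, 11.8 and 13.6 CPM in TAM-MG and changed by 0.32 ± 0.75 in bulk tumours. Cry2 was at 43.8, 38.1 and 49.7 CPM against 203, 252 and 74.2 CPM in bulk tumours (2.01 ± 0.46). In TAM-MG it had no count in Rheb1 fl/fl libraries and 6.16 to 6.94 CPM in Δ/Δ libraries, at least 94-fold higher. Per1, a period gene, was at 57, 20.4 and 22 CPM against 293, 374 and 252 CPM in bulk tumours (3.21 ± 0.57, adjusted p = 0.0466), whereas in TAM-MG it was at 42 and 10.6 CPM against 36, 24.6 and 31.2 CPM (0.22 ± 0.59). The interaction for Per1 was -2.99 (interval -4.71 to -1.27). Cirbp, a cold-inducible RNA-binding protein, followed Per1, with changes of 2.64 ± 0.46 and 0.30 ± 0.49. The labels used here give no hour of collection.

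Few signalling genes upstream of these targets passed in either tissue, and their medians in TAM-MG were positive. Over all genes tested, 6.25% passed as higher in TAM-MG, where the median was 0.08. In bulk tumours 1.13% passed as higher and 3.49% as lower. The single passes in TAM-MG among PI3K and Akt genes and among mTOR genes stood near the share of all genes. Of 22 NF-kB subunits and kinases, 19 were positive in TAM-MG (3 passed, median 0.85) and 12 in bulk tumours (Ikbkb rose and Tnfaip3 fell, median 0.07). Nfkb1, the p50 precursor, was at 77.5 and 77.2 CPM against 107, 225 and 200 CPM in TAM-MG (1.2 ± 0.44, passed) and at 85.5, 41.1 and 71.5 CPM against 32, 41.2 and 26.9 CPM in bulk tumours (-0.98 ± 0.38, not passed). The interaction was 2.18 (interval 0.90 to 3.46). Of 17 PI3K and Akt genes, 15 were positive in TAM-MG (1 passed, median 0.82), and of 15 STAT3 pathway genes 13 were (median 0.98). None of the latter passed by edgeR's quasi-likelihood test, where 2 were higher at an unadjusted p under 0.05, and 1 was higher by its likelihood ratio test, 1 by DESeq2 and 3 by limma voom. Stat3 itself changed by -0.03 ± 0.26 and 0.05 ± 0.29. The 20 mTOR genes had medians of 0.08 in bulk tumours and 0.11 in TAM-MG, and the latter became -0.35 with centred libraries. In TAM-MG Eif4ebp2, named because it passed and a translational repressor that mTORC1 inactivates, rose (2.46 ± 0.46). Its change in bulk tumours was 0.08 ± 0.37.

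Proliferation genes, nuclear respiratory chain genes and ribosomal protein genes had negative medians in TAM-MG, and few single genes passed. Leaving out Rheb1 fl/fl replicate 78 or Δ/Δ replicate 63 brought each of these medians nearer to 0, at the nearest to -0.57, -0.12 and -0.04, and leaving out Rheb1 fl/fl replicate 74 took that of the nuclear respiratory genes to -0.61. Protein genes of the mitochondrial genome, which encode parts of the respiratory chain and ATP synthase, had a positive median. Of 11 tested, 7 were positive in TAM-MG (median 0.18) and 11 in bulk tumours (median 0.54). The TAM-MG median was -0.18 with centred libraries and ran from -0.28, without Rheb1 fl/fl replicate 74, to 0.96, without replicate 78, as single libraries were left out. Proliferation genes were negative for 21 of 22 in TAM-MG (median -0.97) and for 13 of 22 in bulk tumours (median -0.08), and 0 passed in either. At an unadjusted p under 0.05, edgeR's quasi-likelihood test gave 5 proliferation genes as lower in TAM-MG (3% of all genes) and 0 in bulk tumours (5.57% of all genes), and at the threshold of 0.02 the likelihood ratio test and DESeq2 each gave 1 and limma voom 5 in TAM-MG. Ccnb1, the mitotic cyclin B1, was at 73.1 and 193 CPM in Rheb1 fl/fl TAM-MG and at 70.4, 27.2 and 51.1 CPM in Δ/Δ TAM-MG, without overlap (-1.42 ± 0.55, not passed). Nuclear genes of the respiratory chain, of which 0 were lower in TAM-MG at the threshold, 2 at an unadjusted p under 0.05 and 1 by DESeq2, were negative for 21 of 22 in TAM-MG (median -0.40) and for 2 of 22 in bulk tumours (median 0.25). Ribosomal protein genes were negative for 28 of 30 in TAM-MG (median -0.22) and for 10 of 30 in bulk tumours (median 0.06), with 0 at an unadjusted p under 0.05 in either tissue and 0 by DESeq2. Uqcrc1, of respiratory complex III, was at 1140 and 1338 CPM against 1037, 747 and 757 CPM in TAM-MG without overlap, a change of -0.55 ± 0.38 that did not pass.

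**Figure D4:**
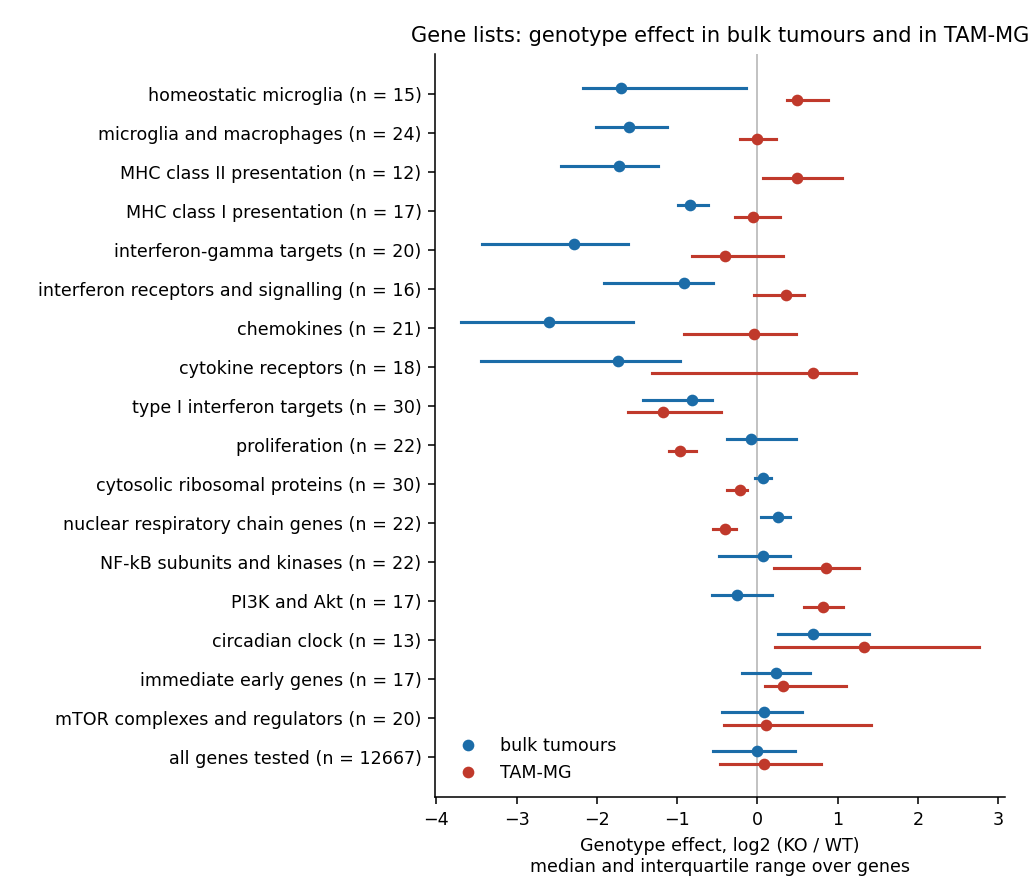
Median (point) and interquartile range (bar) of the log2 genotype effect over the tested genes of each list, in bulk tumours and in TAM-MG. Interferon-gamma targets sit at -2.29 in bulk tumours and -0.40 in TAM-MG, type I interferon targets at -0.81 and -1.18, and all genes tested near 0 in both.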

How the data were processed

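RNA-seq followed the SmartSeq2 and Nextera XT protocols, with paired-end reads from a HiSeq4000. The authors aligned reads with STAR to mouse GRCm38 and deposited raw gene counts. The authors also deposited TPM values from Salmon, used here only for 1 alternative over the genes both tables hold. Tool versions and the strand setting of the counting are not given in the sources used here. The TAM-MG count and TPM tables each end in an unnamed row equal to 100% of the gene sum, which was dropped, and 0 columns were left unmapped.

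The counts of all 11 libraries were joined, filtered with filterByExpr within each tissue (minimum count 10, minimum total 15, both tissues required), scaled by TMM and fitted in 1 model of 4 groups with edgeR's quasi-likelihood test (edgeR 4.0.16, limma 3.58.1, DESeq2 1.42.0, R 4.3.3). Contrasts were Δ/Δ minus Rheb1 fl/fl in each tissue, and the TAM-MG effect minus the bulk effect. SE is the log2 change over the square root of F, and the biological coefficient of variation was 0.78. Joint fitting lets bulk and TAM-MG libraries share 1 estimate of spread. A gene was counted as adjusted at a Benjamini-Hochberg p under 0.05 over all genes, and as passing at an unadjusted p of at most 0.02 with at least 1.5-fold, the thresholds of the study for TAM-MG. Scripts were tested on simulated data. The members and the 39 lists were chosen with earlier results of these data known.

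Named genes are Rheb, the 8 smallest interaction p in each direction, 6 genes per class that passed in both tissues, 4 per class that passed in 1 tissue, genes the study names, and, from every list, its first 4 tested genes. They number 198, of which 96 overlap another annotated gene. CPM are TMM-scaled. Folds against a group at 0 are bounds from a floor of 3 counts over the group, ratios with 1 to 3 counts carry an exact 95% binomial interval, and both cover counting error only. The level ratio between tissues used a pseudocount of 0.5 CPM. Alternatives were the likelihood ratio test, DESeq2, other scalings and filters, limma voom, separate fits per tissue, log2 TPM with a pseudocount of 1 or 0.1, and leaving out each library. Results for some genes are not reported here.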

Additional observations from a re-analysis of the deposited data

Results flagged for a closer look

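The genotype effect differed between TAM-MG and bulk tumours, by the interaction test of edgeR with Benjamini-Hochberg adjustment, for 62 genes in the positive and 9 in the negative direction, and the following named genes were among them. Values are log2 interactions, positive where the effect of Cx3cr1-Rheb1 Δ/Δ was higher in TAM-MG. For genes with a group at 0 counts the fitted value depends on the prior count and is no bound.

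Positive interactions were found for Il1b (8.11), Cysltr1 (7.0), Tnfaip8l2 (9.38), Csf3r (5.50), Pla2g15 (3.03), Sall1 (4.11), Mgl2 (19.20) and F630028O10Rik (16.54). Others were those of Car2 (12.41), Tspyl4 (7.69), Lmtk2 (10.99), Srxn1 (11.75), Usp31 (10.95), Rai1 (10.05), Tbc1d24 (11.61), Rusc1 (8.70), Cry2 (8.03), Cav1 (9.12), Fabp7 (10.36) and Aqp4 (10.76). The negative interactions were those of Csdc2 (-10.78), Lrp8 (-7.29), Dkk3 (-11.61), Gm45205 (-5.00), Zic5 (-8.67), Pcdh10 (-5.94), Gpx2 (-13.98) and 4930455G09Rik (-10.20). Gm45205 overlaps Pycard. It was at 1.39, 0.823 and 0.233 CPM in bulk Rheb1 fl/fl libraries, at 18.8, 27.7 and 8.84 CPM in bulk Δ/Δ libraries and at 288 to 593 CPM in TAM-MG, and was higher in bulk Δ/Δ tumours (log2 change 4.48 ± 0.60, adjusted p = 0.0156).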

How the results depend on the processing

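No paired analysis was possible because the groups share no replicate number. Depth limits genes with few counts in a group: the 520 tested genes without a count in Rheb1 fl/fl TAM-MG have no measured fold. The cause of each shift below was not tested, except that settings with fewer genes can call fewer. Each named result was tried in 20 to 23 settings, since some filters or the TPM values left out genes, and 177 of 236 kept their sign in every one tried. The interaction of P2ry12 turned to -0.91 with log2(TPM + 0.1).

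Positive interactions at an adjusted p under 0.05 (62) numbered 620 by the likelihood ratio test, 639 by DESeq2, 28 with centred libraries, 3 where each library had 10 or more counts and 0 by limma voom, and 22 had no group at 0 (a choice made after seeing the data). Negative ones (9) numbered 79, 106 by DESeq2, 0 with at least 10 counts, 0 by voom and 3 without a group at 0. At p of at most 0.02, positive interactions (798) numbered 344 with at least 10 counts, 450 by voom and 435 without a group at 0, and negative ones (164) 273 by DESeq2, 612 with centred libraries and 288 without a filter.

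Genes higher in bulk Δ/Δ tumours (143) numbered 250 by DESeq2, 94 by library size only, 250 with centred libraries, 369 by voom and 237 with each tissue alone. Genes higher in Δ/Δ TAM-MG (792) numbered 283 with at least 10 counts, 255 by voom, 341 alone, 291 by log2(TPM + 1) and 308 by log2(TPM + 0.1), and genes lower (176) 284 by DESeq2, 582 centred, 306 without a filter, 307 by voom and 105 and 84 by TPM.

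Genes lower in both (12) numbered 24 centred, 27 by voom, 19 alone and 30 at p of at most 0.05, and 18 by DESeq2, which held all 12. Genes higher in both (7) numbered 12 by the likelihood ratio test, 19 by DESeq2, 3 with at least 10 counts, 4 by log2(TPM + 0.1) and 23 at 0.05. Genes lower in bulk tumours and higher in TAM-MG (17) numbered 26, 27 by DESeq2, 8 with at least 10 counts refitted, 5 in the same fit, 29 by log2(TPM + 1) and 47 at 0.05. The reverse (2) numbered 4, 5 by DESeq2, 1 by library size only, 22 centred, 8 by voom, 1 alone, 1 by either TPM setting and 12 at 0.05.

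Leaving out each library gave 2 to 466 positive and 0 to 35 negative adjusted interactions, and 623 to 1329 and 128 to 301 at p of at most 0.02. It gave 106 to 162 higher and 324 to 538 lower genes in bulk tumours, 698 to 1323 and 142 to 354 in TAM-MG, 5 to 21 lower in both, 4 to 18 higher in both, 9 to 32 opposite and 0 to 4 the reverse.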
